A study of Mus musculus with 11 samples.

Results

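The 10 genes examined here encode enzymes and core subunits that write or erase DNA methylation (Dnmt1, Dnmt3a, Tet1, Tet2 and Tet3) and the Polycomb mark on histone H3 lysine 27 (Ezh2, Suz12, Eed, Kdm6a and Kdm6b). They were taken by name from the 32469 gene symbols of the bulk RNA-seq table, and all 10 were found there. Female wild-type (WT) C57BL/6 mice, 8 weeks old, carried Lewis lung carcinoma (LLC) tumors, grown from a lung carcinoma line of the same strain, in both flanks. The tumor on one side was excised on day 14. Of the 11 mice, 5 were left untreated and 6 (aLAG3 in the labels, anti-LAG-3 here) received 200 µg of the LAG-3 antibody C9B7W on day 14 and again on day 16, and LAG-3 is an inhibitory receptor of exhausted T cells. For the second tumor, taken after the antibody, 1 source text has day 18 and another has day 21. The sequenced cells were sorted as CD8+PD-1+Ly108+TIM-3-, the precursor exhausted cells, and narrowed by a further surface marker, so the values describe that gate and no other T cells of the tumor. The untreated mice received no control antibody as far as the labels say, so antibody injection and LAG-3 blockade cannot be told apart. Libraries 1 to 5 are untreated and libraries 6 to 11 are anti-LAG-3, with 1 library for each mouse.

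DNA methylation at CG dinucleotides is copied to the new strand by DNMT1 when a cell divides and is laid down on unmethylated DNA by DNMT3A, whereas the TET dioxygenases oxidize it and so begin its removal. Polycomb repressive complex 2 (PRC2) holds the methyltransferase EZH2 with its partners SUZ12 and EED and methylates histone H3 lysine 27, and the demethylases KDM6A (UTX) and KDM6B (JMJD3) remove that mark. In CD8 T cells these enzymes are known to shape which genes stay accessible or silent as cells become effector, memory or exhausted cells, and part of the exhausted chromatin state is known to persist under checkpoint blockade. The comparison below asks whether the mRNA of these genes differed between the treated and untreated mice. It holds no measurement of DNA methylation or of histone marks.

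All but Tet1 of the 10 genes were measured well enough to test. Counts are given as CPM, the reads of a gene scaled to a common library size with TMM factors, and the member genes are set in order of level as CPM per kb of the longest coding transcript. By that measure, Eed (30.8 CPM per kb over the 11 libraries) and Ezh2 (29.3 CPM per kb) were the highest. They were followed by Kdm6b at 11.8, Dnmt1 at 11.1 and Suz12 at 10.5 CPM per kb. Kdm6a stood at 7.11, Tet2 at 6.81, Dnmt3a at 4.30 and Tet3 at 3.45 CPM per kb, and Tet1 was last at 0.113 CPM per kb. Within single libraries Ezh2 lay above Kdm6b in 11 of 11 libraries and Tet2 above Dnmt3a in 11 of 11, and Suz12 lay above Kdm6a in 10 of 11. The other neighbours in the order changed places from library to library, the higher of the pair leading in 6 to 8 of 11, and Eed and Ezh2 were among these (Eed higher in 7 of 11). Whether the counts of this library type scale with transcript length was not tested, and in CPM without division by length the order differed, with Ezh2 first (81.6 CPM), then Kdm6b (78.4 CPM), Dnmt1 (65.0 CPM) and Eed (63.6 CPM).

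**Figure D1:**
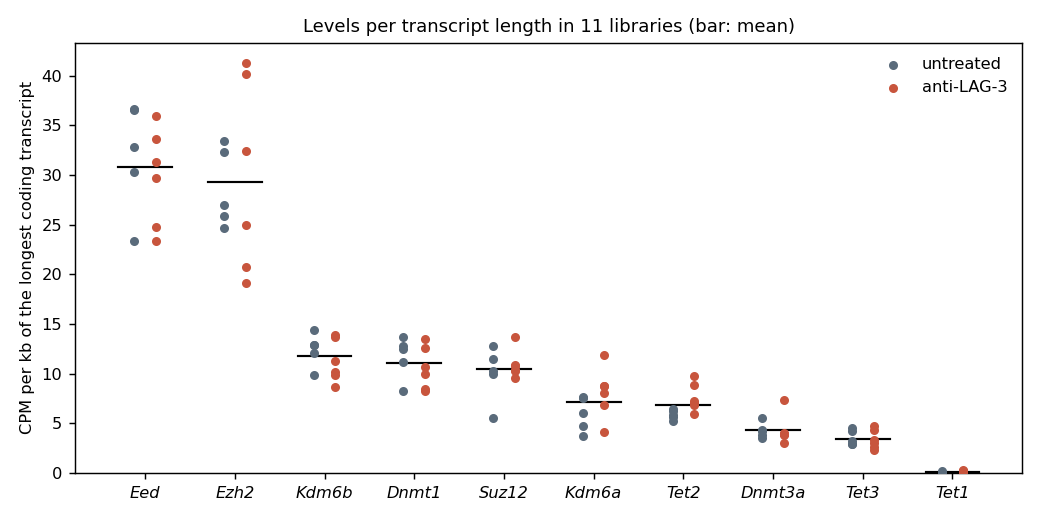
Level of each gene as CPM per kb of the longest coding transcript (vertical axis) in the 5 untreated (gray) and 6 anti-LAG-3 (red) libraries, with a bar at the mean over all 11. Eed and Ezh2 stand near 30 CPM per kb, a middle set from Kdm6b to Suz12 near 11, and Tet1 close to 0, while the gray and red points overlap for every gene.

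After LAG-3 blockade, no member gene passed the test against the untreated mice. Of the 9 genes tested, 0 passed an adjusted p of 0.05, and none had groups that did not overlap. In the quasi-likelihood fit of edgeR, with p-values adjusted by Benjamini-Hochberg over 6949 genes, 0% of all genes passed as well (0 genes also by DESeq2 and by edgeR's likelihood ratio test), and 0.475% of all genes had groups that did not overlap in CPM. At an unadjusted p under 0.05, 1 of the 9 was higher (Tet2) and 0 were lower, against 1.74% of all genes tested higher (121 genes) and 1.99% lower (138 genes). The median log2 fold change of the 9 genes was −0.024, with 4 above 0 and 5 below, and that of all genes tested was 0.0045. The interval that reached farthest from 0 on the log2 scale was that of Kdm6a, −0.09 to 0.75, and none of the 9 intervals reached a 2-fold change in either direction. The adjusted p of each of the 9 genes was 0.999 in this fit. In such bulk samples, a change in the share of cells that express a gene and a change of RNA per cell cannot be told apart.

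The depth and purity behind these values were as follows. Libraries held 313524 to 1901374 counts, and a count of 3, used here as the detection floor, equals 1.58 CPM in the deepest and 9.57 CPM in the shallowest library. Depth followed the RNABC number in the title of each library: the 6 libraries with number 9 (libraries 1, 3, 5, 6, 7 and 9) held at least 566144 counts, and the other 5 at most 451465. Because number 9 holds 3 libraries of each group, values within it are given wherever they change a statement. CD8 T cell genes summed to 4810 to 5390 CPM in every library, and Cd4 had at most 1 read in any. Of the sorting genes, Pdcd1 (PD-1) had 465 to 748 CPM and Slamf6 (Ly108) 71.9 to 115 CPM. Havcr2 (TIM-3), which the sort excludes, had a mean of 4.72 CPM and at most 7 reads in a library. The 5 tested genes of the list for the sort and the precursor state all had log2 fold changes below 0 in the treated mice (median −0.17, 0 called). The smallest unadjusted p among them, 0.0214 in edgeR, was that of Pdcd1, and their part in the members' values was not tested. The 10 myeloid genes, all of which had reads, summed to 21.9 to 59.0 CPM in the untreated libraries and to 24.8 to 87.1 CPM in 5 anti-LAG-3 libraries, but to 164 CPM in library 10, which was also the shallowest. By the ExT index in their titles, treated library 10 shares an index with untreated libraries 2 and 3, and libraries 4 and 5 share another.

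**Figure D2:**
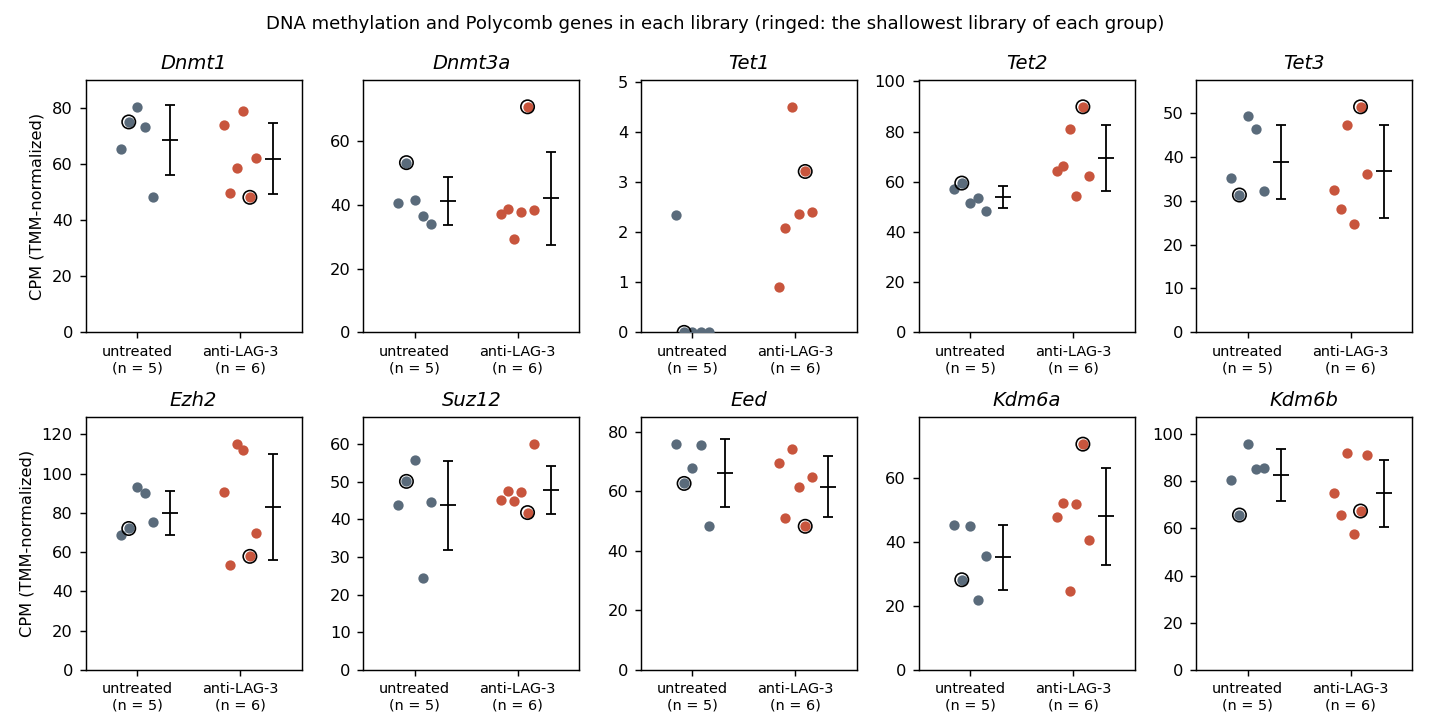
TMM-normalized CPM of each gene (vertical axis, a scale per panel, from 0) in every untreated and anti-LAG-3 library, with the mean and SD of the group beside the points, which are left out for Tet1. The groups overlap in every panel, and the ringed shallowest anti-LAG-3 library (library 10) is the highest point of Dnmt3a, Tet2, Tet3 and Kdm6a.

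Dnmt1, the maintenance enzyme (GRCm38 chr9:20907209-20959888, minus strand), had 65.6, 75.1, 80.5, 73.2 and 48.3 CPM in untreated libraries 1 to 5. In anti-LAG-3 libraries 6 to 11 it had 74.1, 49.6, 58.5, 79.1, 48.2 and 62.4 CPM. The groups covered nearly the same range, with a low library among the untreated (5) and a pair of low libraries among the treated (7 and 10). The untreated mean was 68.5 ± 12.5 CPM (SD, n = 5), the treated mean 62.0 ± 12.6 CPM (SD, n = 6), and the log2 fold change was −0.13 (SE 0.164, 95% interval −0.47 to 0.20, edgeR adjusted p = 0.999). Dnmt3a, the de novo methyltransferase (chr12:3806007-3914443, plus strand), had 40.6, 53.2, 41.5, 36.6 and 34.0 CPM in the untreated mice. In the treated mice it had 37.1, 38.6, 29.2, 37.8, 70.7 and 38.4 CPM. Of the 6 treated libraries, 4 lay between 37.1 and 38.6 CPM, and library 10 lay far above them on 22 reads. The untreated mean was 41.2 ± 7.39 CPM (SD, n = 5), the treated mean 42 ± 14.5 CPM (SD, n = 6). The log2 fold change of Dnmt3a was −0.024 (SE 0.193, edgeR adjusted p = 0.999) with library 10 and −0.14 without it. With library 10 the fitted sign was opposite to that of the means, which weigh deep and shallow libraries alike. Dnmt3a overlaps the antisense gene Dnmt3aos, and since the use of strand in counting is not stated, reads of the pair cannot be separated.

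The erasers of DNA methylation held the gene with the smallest p of the set. Tet2 (chr3:133463679-133545139, minus strand), the most highly counted TET gene, had 57.0, 59.5, 51.7, 53.7 and 48.3 CPM in the untreated mice. Treated libraries 6 to 11 had 64.2, 66.3, 80.9, 54.3, 89.9 and 62.4 CPM. Of the 6 treated libraries, 5 lay above every untreated library, and library 9 lay among the untreated. The untreated mean was 54.0 ± 4.4 CPM (SD, n = 5), the treated mean 69.7 ± 13.2 CPM (SD, n = 6). The log2 fold change of 0.32 (SE 0.152, 95% interval 0.010 to 0.63) had an unadjusted p of 0.0434 and an adjusted p of 0.999 by edgeR's quasi-likelihood test, so it failed the correction for 6949 genes. Without library 10, in which the myeloid genes were highest, the log2 fold change was 0.27 (unadjusted p = 0.0897 in edgeR), and within the 6 libraries of RNABC number 9 it was 0.23 (unadjusted p = 0.195 in edgeR). The part of myeloid RNA in the Tet2 value was not tested. Tet2 and Tet3 each overlap an uncharacterized gene on the other strand (Gm42567 and B230319C09Rik).

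Tet3 (chr6:83362373-83459084, minus strand), a TET enzyme with a DNA-binding CXXC domain, had 35.1, 31.3, 49.2, 46.3 and 32.2 CPM in the untreated mice. The 6 treated libraries had 32.5, 28.2, 47.2, 24.8, 51.4 and 36 CPM. Libraries 7 and 9 lay below every untreated library, and library 10 was again the highest. The untreated mean was 38.8 ± 8.33 CPM (SD, n = 5), the treated mean 36.7 ± 10.6 CPM (SD, n = 6). The fitted log2 fold change was −0.23 (SE 0.207, edgeR adjusted p = 0.999), farther from 0 than the log2 ratio of these means. Within RNABC number 9 it was −0.47 (adjusted p = 0.986 in edgeR). Tet1, the TET gene known from embryonic stem cells and the germ line (chr10:62804570-62908996, minus strand), was near the limit of detection. It had 3 reads in untreated library 1 and 0 in the other 4, and 11 reads in all in the treated mice, with at least 1 in each of the 6 libraries. Pooled over libraries, that is 0.802 CPM in the untreated mice (95% exact Poisson interval 0.165 to 2.34) and 2.18 in the treated mice (1.09 to 3.91), intervals that cover counting error only and overlap. The ratio of 2.72 had an exact 95% counting interval of 0.719 to 15.2, so a difference was not detectable at this depth. Tet1 did not pass the filter on low counts (10 counts at the median depth, 17.7 CPM, in at least 5 libraries).

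The PRC2 core had 3 genes with unlike spreads. Ezh2, the catalytic subunit (chr6:47530139-47595341, minus strand), had 68.7, 72.0, 93.2, 90.2 and 75.1 CPM in the untreated mice. After treatment the values were 90.4, 53.2, 115, 112, 57.8 and 69.6 CPM. Libraries 8 and 9 lay above every untreated library and libraries 7 and 10 below every one, so the treated mice lay on both sides of the untreated. The untreated mean was 79.9 ± 11.1 CPM (SD, n = 5), the treated mean 83.0 ± 26.8 CPM (SD, n = 6), with a log2 fold change of 0.039 (SE 0.182, 95% interval −0.34 to 0.41, edgeR adjusted p = 0.999). The difference in spread between the groups was not tested. Leaving out single libraries moved the log2 fold change of Ezh2 from −0.09 (without library 9) to 0.20 (without library 7).

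Suz12, the subunit that holds the complex together (chr11:79993106-80034123, plus strand), had 43.7, 50.1, 55.9, 24.4 and 44.7 CPM in the untreated mice. Libraries 6 to 11 had 45.2, 47.5, 45.0, 47.2, 41.8 and 60 CPM. Apart from the low library 4, on 10 reads, and the high library 11, on 25 reads, the libraries of both groups lay between 41.8 and 55.9 CPM. The log2 fold change was 0.071 (SE 0.178, edgeR adjusted p = 0.999), and −0.034 without library 4. Eed, the subunit that reads the trimethylated mark (chr7:89954654-89980983, minus strand), had 75.8, 62.6, 67.8, 75.6 and 48.3 CPM in the untreated mice and 69.6, 51.1, 74.2, 61.4, 48.2 and 64.8 CPM in the treated mice. The lowest libraries of Eed, 5, 7 and 10, were the same as those of Dnmt1. The log2 fold change of Eed was −0.13 (SE 0.155, edgeR adjusted p = 0.999). All 3 genes overlap antisense transcripts in the annotation, and 5.82% of the distinct 50-base stretches of Eed are shared, more with E230029C05Rik, on the other strand, than with any other gene.

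The demethylases of lysine 27 had fold changes of opposite sign, neither past the threshold. Kdm6a, which escapes X inactivation (chrX:18162575-18279936, plus strand), had 45.3, 28.2, 44.9, 21.9 and 35.7 CPM in the untreated mice. The treated mice had 47.9, 52.2, 24.7, 51.9, 70.7 and 40.8 CPM. Of the 6 treated libraries 4 lay above every untreated library, and library 8 lay with the lowest untreated libraries. The untreated mean was 35.2 ± 10.3 CPM (SD, n = 5), the treated mean 48.0 ± 15.1 CPM (SD, n = 6), with a log2 fold change of 0.33 (SE 0.206, 95% interval −0.09 to 0.75, edgeR adjusted p = 0.999). Without library 8 the log2 fold change was 0.42 and without library 10 it was 0.26, with adjusted p of 0.997 and 1 in edgeR. Of the 50-base stretches of Kdm6a, 0.14% occur in other genes, first of all in its Y-linked relative Uty.

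Kdm6b, an inducible demethylase (chr11:69398508-69413675, minus strand), had 80.5, 65.7, 95.8, 85.4 and 85.8 CPM in the untreated mice. The treated mice had 75.0, 65.7, 92.2, 57.8, 67.4 and 91.2 CPM. Libraries 9 and 7 were at or below the lowest untreated library, and libraries 8 and 11 near the highest. The log2 fold change was −0.21 (SE 0.145, 95% interval −0.51 to 0.086, edgeR adjusted p = 0.999). Within RNABC number 9 the 3 untreated libraries (80.5, 95.8 and 85.8 CPM) all lay above the 3 treated ones (75.0, 65.7 and 57.8 CPM), with a log2 fold change of −0.40 (unadjusted p = 0.0228, adjusted p = 0.986 in edgeR). Kdm6a did not overlap there either, in the other direction (35.7 to 45.3 against 47.9 to 52.2 CPM). In those 6 libraries 5.12% of the 6949 genes lay wholly higher and 5.11% wholly lower in the treated mice. Of the 9071 genes that passed the filter in a fit of those libraries alone, 2.09% were higher and 2.59% lower at an unadjusted p under 0.05. Kdm6b overlaps its antisense gene Kdm6bos, so the same limit on strand holds for it.

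**Figure D3:**
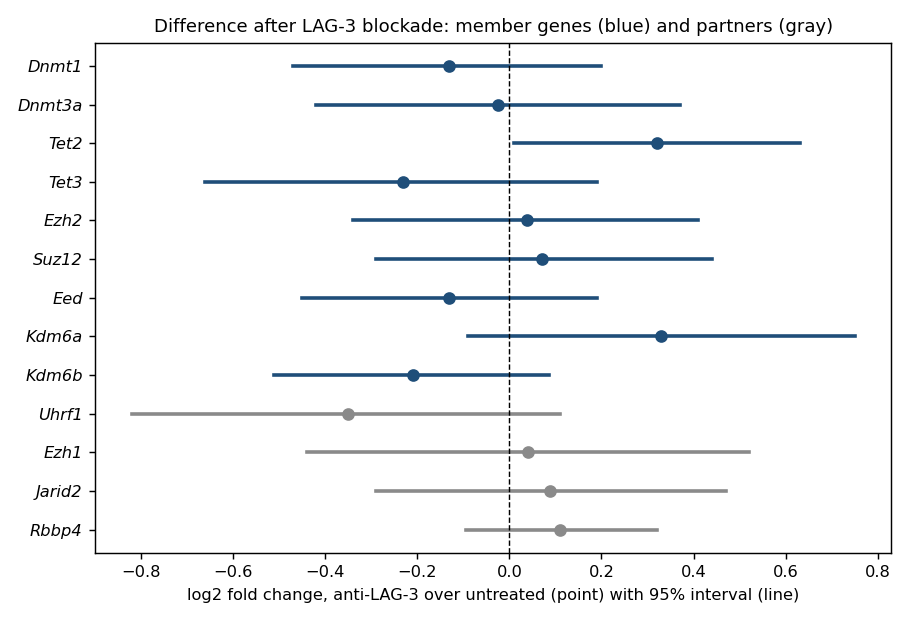
Log2 fold change of anti-LAG-3 over untreated (horizontal axis) with its 95% interval for the 9 tested member genes (blue) and 4 partner genes (gray). Only the interval of Tet2, from 0.010 to 0.63, leaves out 0, and all intervals stay within 1 on either side.

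The spread between mice of a group was compared with counting noise as a chi-square per degree of freedom, which is near 1 for counting noise alone. The median over all 6949 genes was 1.46. Ezh2 had the highest value of the 9 genes, 4.87, and 4.65% of all genes had a higher one. Dnmt1 followed at 2.09 and Kdm6a at 1.79. Tet2 at 0.746 and Suz12 at 0.975 were below 1, with 87.5% and 76.0% of all genes above them. Among 1746 genes with totals within 1.5-fold of that of Ezh2, 3.21% had a higher value, and the median was 1.47.

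**Figure D4:**
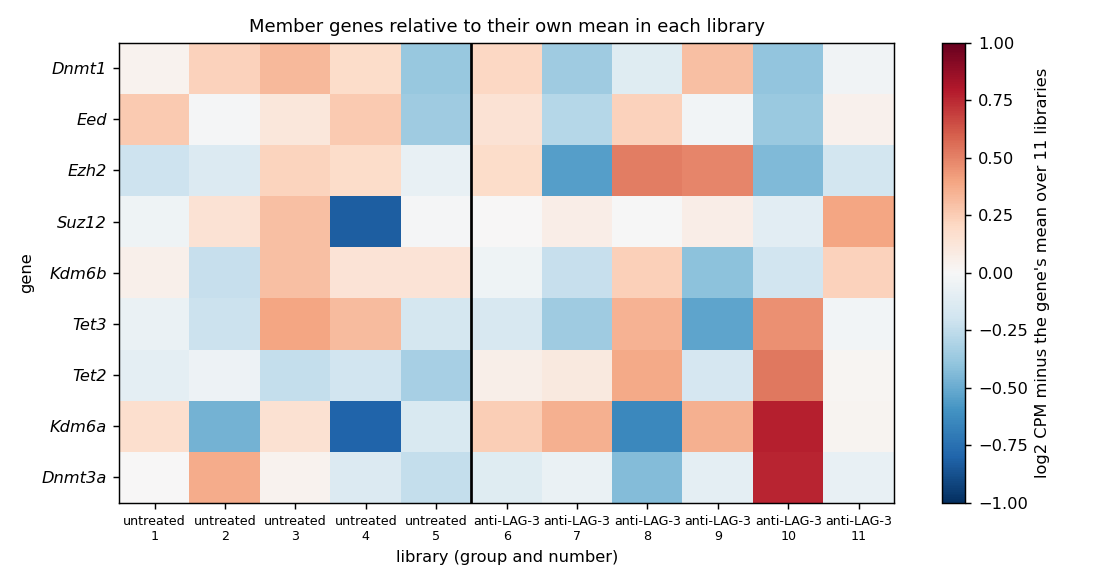
Log2 CPM of the 9 tested genes (rows) minus each gene's mean over the 11 libraries (color, red above and blue below the mean), with untreated libraries left of the line and anti-LAG-3 libraries right of it. Library 10 is red for Dnmt3a, Kdm6a, Tet2 and Tet3 and blue for Dnmt1, Eed and Ezh2, and Dnmt1 and Eed are blue together in libraries 5, 7 and 10.

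Dnmt1 and Ezh2 are known to be high in dividing cells, so each gene was set against a cell cycle score, the mean centred log2 CPM of 34 S and G2/M genes. The mean score was −0.0073 ± 0.1 (SD) in the untreated and 0.0061 ± 0.243 in the treated mice, 0.013 apart (p = 0.918 by an exact permutation test, two-sided), and it was lowest in library 10 at −0.44. Over the 11 libraries Dnmt1 had the highest correlation with it, with Pearson's r = 0.70 (permutation p = 0.00686, adjusted over 9 genes 0.0617) and Spearman's rho = 0.63 (permutation p = 0.0432, adjusted 0.341). Eed followed with r = 0.67 (permutation p = 0.0179, adjusted 0.0806) and rho = 0.42 (permutation p = 0.203, adjusted 0.532). Ezh2 had r = 0.56 (permutation p = 0.0698, adjusted 0.181) and rho = 0.56 (permutation p = 0.0757, adjusted 0.341). None of the 9 passed the adjustment. Without libraries 10 and 6, the farthest from the median score, r was 0.65 for Dnmt1, 0.54 for Eed and 0.43 for Ezh2. Within RNABC number 9 it was 0.73, 0.68 and 0.47, in 6 libraries. Dnmt3a had r = −0.59 (permutation p = 0.0806, adjusted 0.181) and rho = −0.18 (permutation p = 0.596, adjusted 0.766), but r was 0.23 without libraries 10 and 6 and 0.12 without library 10 alone, so its negative value rested on that library. In the same way r of Tet2 (−0.34 with and 0.42 without library 10) and of Kdm6a (−0.30 and 0.27) changed sign.

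**Figure D5:**
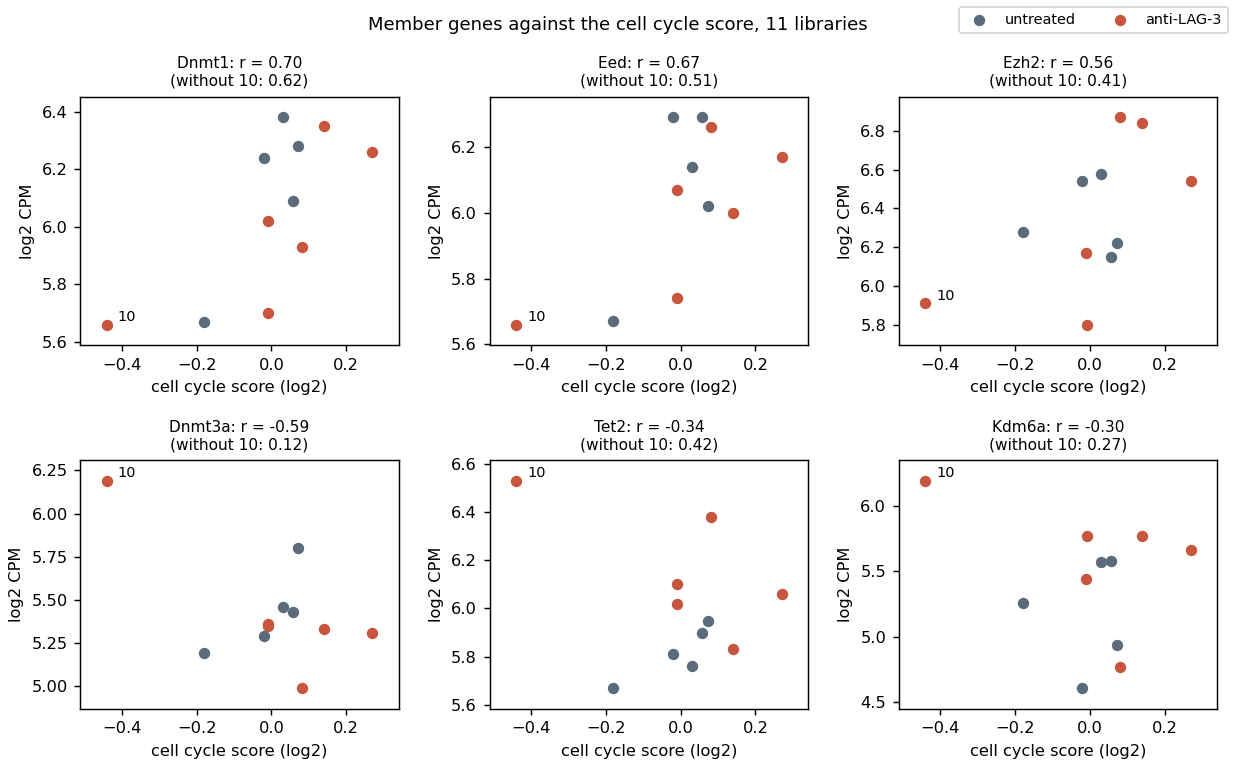
Log2 CPM of 6 member genes (vertical axes) against the cell cycle score (horizontal axes, log2 scale) in 5 untreated (gray) and 6 anti-LAG-3 (red) libraries, with library 10 marked and Pearson's r with and without it above each panel. Dnmt1, Eed and Ezh2 keep a positive r without library 10, whereas Dnmt3a, Tet2 and Kdm6a turn from negative to positive.

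Among themselves the 9 genes formed 36 pairs, 18 with a positive and 18 with a negative r over the 11 libraries, and 0 with an adjusted permutation p under 0.05. Dnmt1 and Eed had the highest r, 0.70 (permutation p = 0.0179, adjusted 0.466, rho = 0.42, permutation p = 0.204, adjusted 0.666). Dnmt1 and Ezh2 had r = 0.61 (permutation p = 0.0487, adjusted 0.466) and rho = 0.55 (permutation p = 0.0874, adjusted 0.666). Without the 2 libraries farthest from the median of Dnmt1, r was 0.38 with Eed and 0.55 with Ezh2. Tet3 and Kdm6b also had r = 0.61 (permutation p = 0.0511, adjusted 0.466) and rho = 0.67 (permutation p = 0.0284, adjusted 0.666), with r = 0.79 without the 2 libraries farthest from the median of Tet3 and 0.91 in the 6 libraries of RNABC number 9.

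The genes most like the 3 most highly counted members over the 11 libraries are given as a description, with library depth shared by all points. Ezh2 was most like Ube2s (r = 0.86), an enzyme of mitotic ubiquitination, followed by Maz and Dazap1 (each r = 0.82). Kdm6b was most like Smim27 (r = 0.89), Gm9276 (r = 0.85) and Nfil3 (r = 0.84), a transcription factor of lymphocytes. Dnmt1 was most like Mettl9 (r = 0.90), Fto (r = 0.87), an RNA demethylase, and Psmb4 (r = 0.84), a proteasome subunit. They are the top of 6949 genes compared, and no test was made of them.

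Promoters are shown for the 3 members whose window holds a letter match to an E2F motif, since E2F factors drive genes of dividing cells and Dnmt1 and Ezh2 were set against the cell cycle score, and for Tet2, whose window is the richest in CG dinucleotides, where DNA methylation is laid down, among the 13 windows listed (Kdm6b has none). The sequences come from RefSeq on build GRCm38.p6 and hold 250 bases before and 50 from the start, read on the strand of the gene. Matches to TTTCCCGC, TTTGGCGC, TTTCGCGC or TTTGCCGC on either strand are in capitals, and the Tet2 window holds none.
Dnmt1, chr9:20952574-20952873, minus strand: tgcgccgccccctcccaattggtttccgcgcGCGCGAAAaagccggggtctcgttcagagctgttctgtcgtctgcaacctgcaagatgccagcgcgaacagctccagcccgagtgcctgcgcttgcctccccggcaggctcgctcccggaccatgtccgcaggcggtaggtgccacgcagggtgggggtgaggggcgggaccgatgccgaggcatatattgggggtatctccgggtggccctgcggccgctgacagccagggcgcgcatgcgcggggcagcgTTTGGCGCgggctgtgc
Ezh2, chr6:47594981-47595280, minus strand: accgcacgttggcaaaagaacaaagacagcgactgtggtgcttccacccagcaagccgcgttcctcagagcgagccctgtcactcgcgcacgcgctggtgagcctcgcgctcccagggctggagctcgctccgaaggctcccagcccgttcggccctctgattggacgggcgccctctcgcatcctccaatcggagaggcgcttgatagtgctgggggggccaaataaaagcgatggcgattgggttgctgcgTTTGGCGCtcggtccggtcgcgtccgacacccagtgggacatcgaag
Suz12, chr11:79992856-79993155, plus strand: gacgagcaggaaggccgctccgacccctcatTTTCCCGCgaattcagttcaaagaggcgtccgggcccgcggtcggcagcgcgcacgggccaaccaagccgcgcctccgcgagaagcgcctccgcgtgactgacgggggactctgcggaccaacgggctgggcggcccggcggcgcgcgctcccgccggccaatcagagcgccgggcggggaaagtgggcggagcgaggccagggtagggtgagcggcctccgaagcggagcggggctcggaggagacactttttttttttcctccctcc
Tet2, chr3:133544341-133544640, minus strand: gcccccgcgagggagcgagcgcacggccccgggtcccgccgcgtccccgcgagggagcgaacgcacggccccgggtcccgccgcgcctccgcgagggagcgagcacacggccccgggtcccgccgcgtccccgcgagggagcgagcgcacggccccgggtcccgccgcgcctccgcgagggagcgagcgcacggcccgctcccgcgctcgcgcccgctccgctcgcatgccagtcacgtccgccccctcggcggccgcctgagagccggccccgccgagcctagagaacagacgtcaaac
Such a match was found in 3 of these 13 windows, which belong to 9 genes, and 2.26% of all 32851 promoters of this length held one. Every motif searched holds a CG dinucleotide, and the 3 windows with a match hold more of these than most promoters. The share among promoters of like CG content was not computed, so these shares are not like for like. In Ezh2 it begins 3 bases after the start. The printed Dnmt1 window holds one 219 bases before its own listed start and another 33 bases after that start. The windows of 2 further listed starts of Dnmt1 hold none. Which of these starts the sorted cells use was not tested, so the offsets need not refer to the main Dnmt1 promoter. The match of Suz12, whose r with the cell cycle score was 0.15, also begins 219 bases before the start, and Eed, with r = 0.67, has none. A link between matches and the score was not tested. A match describes letters in this window only. The Tet2 window holds 57 CG dinucleotides, more than 99.8% of all promoters, against a median of 7. The windows of Dnmt1, Ezh2 and Suz12 hold 33, 31 and 41.

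No listed partner of these enzymes passed an adjusted p of 0.05 in edgeR, or an unadjusted p under 0.05. Of 24 genes linked to DNA methylation or its removal, 14 were tested, with 7 higher, 7 lower and a median log2 fold change of −0.027. Uhrf1, which brings DNMT1 to newly copied DNA, had 23.4, 28.2, 33.1, 46.3 and 30.4 CPM in the untreated mice and 28.9, 24.0, 22.5, 27.1, 25.7 and 12 CPM in the treated mice. These groups overlapped, with the lowest value in library 11 on 5 reads, and the log2 fold change was −0.35 (SE 0.227, edgeR adjusted p = 0.999). The log2 fold change of Uhrf1 was −0.12 within RNABC number 9 and −0.23 without library 4. For Uhrf1, 15.4% of the 50-base stretches are shared with other genes, so its counts are uncertain. Dnmt3b, the other de novo methyltransferase, was under the filter at 6.08 ± 2.19 CPM (SD, n = 5) in the untreated and 9.08 ± 5.5 CPM (SD, n = 6) in the treated mice, with at most 15 reads in a library, and was not tested.

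Of 14 listed PRC2 partners 13 had a row, and 10 were tested, with 7 higher, 3 lower and a median of 0.046. Ezh1, the alternative catalytic subunit of cells that do not divide, had 6.26 to 39 CPM in the untreated mice and 27.7 to 38.5 CPM in the treated mice. The low end was library 2 alone, on 2 reads, and the log2 fold change of 0.040 (SE 0.235, edgeR adjusted p = 0.999) was −0.10 without it. Jarid2, a subunit that guides PRC2, had a log2 fold change of 0.089 (SE 0.186) and Rbbp4, a histone chaperone shared with other complexes, one of 0.11 (SE 0.101), each with an adjusted p of 0.999 in edgeR. Rbbp4 shares 17.2% of its 50-base stretches with other genes, and its counts are uncertain for that reason.

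Of 22 subunits of PRC1, the complex that reads the PRC2 mark, 10 were tested, with 4 higher, 6 lower and a median of −0.061. Within RNABC number 9 the PRC1 median was −0.33, and it was 0.037 without library 5 and 0.007 without library 9. Each of these fits had its own filter on low counts, so its median may cover other PRC1 genes than the 10. Bmi1, a ring finger subunit of it, was under the filter, at 14.8 ± 7.2 CPM (SD, n = 5) in the untreated and 10.9 ± 3.14 CPM (SD, n = 6) in the treated mice. Of 23 genes that oppose Polycomb 15 were tested, with 9 higher, 6 lower and a median of 0.013, and Kmt2d, a lysine 4 methyltransferase, was under the filter at 14.5 ± 4.09 and 18.6 ± 7.46 CPM (SD, in the same order). No gene of these lists had groups that did not overlap. Uty, the Y-linked relative of Kdm6a, had 19 reads in all over 8 libraries, with at most 7 in a library, although the mice are given as female. The source of these reads was not tested.

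Classical targets stayed near the floor in both groups. Of 41 listed Hox and Cdkn2 genes, which PRC2 is known to silence in differentiated cells, 30 had a row, 11 had any read, and none passed the filter. The highest, Cdkn2a, named after its value was seen, had a mean of 2.51 CPM. Of 16 germline genes known to be silenced by DNA methylation, 6 had a row, and Tdrd1 was the only one of them with a read (4 in all). At this depth a low level of such genes was not detectable, and the other listed symbols were not analysed here.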

How the data were processed

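The authors removed adapters and poor bases (Cutadapt), aligned to GRCm38 transcripts (Bowtie2) and deposited raw counts per gene symbol (the submitters' processing notes name cutadapt 4.1 and Bowtie2 2.4.5). The treatment of multi-mapping reads and of strand is not given in the sources used here. Groups came from the treatment label, and every column was matched to a library title. The members and lists were chosen with earlier results of these data known.

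Genes were filtered with filterByExpr (10 counts at the median depth, 17.7 CPM, in at least 5 libraries, 15 counts in all), scaled by TMM and tested with edgeR 4.0.16 (quasi-likelihood, Benjamini-Hochberg, threshold 0.05). Levels are CPM, and log2 CPM has a prior count of 2. Correlations used 100000 permutations. Named genes were the members, 8 partners by role, listed genes called or with groups apart, and the 3 genes most like each of the 3 most highly counted members. Positions are from GENCODE M21 (GRCm38), and promoters from RefSeq. Alternatives covered the test, DESeq2 1.42.0, scaling, filter, RNABC number, score, and each library left out. The quasi-likelihood test was checked on simulated counts. Total counts of 313524 to 1901374 limit precision, and counting intervals cover counting error only. Single marker genes of the sort and of other cell types are in part not reported here.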

Additional observations from a re-analysis of the deposited data

Results flagged for a closer look

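The log2 CPM of the 9 tested members and 4 tested partners (Uhrf1, Ezh1, Jarid2 and Rbbp4), the cell cycle score and the log2 total count were searched in each group for a single library far from the rest, by Dixon's criterion at 95%. Of 30 sets 4 met it, where chance gives about 1 in 20 for values of equal spread. These libraries differ in depth, and the 4 values lay in libraries of at most 416093 counts, so 4 is not read as an excess. The part of counting noise in them was not tested. Dnmt3a in anti-LAG-3 library 10 stood at a log2 CPM of 6.19, above the other treated libraries, on 22 reads. Suz12 in anti-LAG-3 library 11 stood at a log2 CPM of 5.97, on 25 reads. Uhrf1 in the same library was low, at a log2 CPM of 3.86 on 5 reads, and Ezh1 in untreated library 2 was low, at 3.13 on 2 reads. Library 10 was the highest of the 11 for 4 of the 9 tested members (Dnmt3a, Tet2, Tet3 and Kdm6a) and the lowest for 2 (Dnmt1 and Eed). It was also the shallowest library, had the lowest cell cycle score (−0.44) and the highest sum of myeloid genes (164 CPM), and the part of each in the members' values was not tested.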

How the results depend on the processing

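No member passed an adjusted p of 0.05 under any alternative. Over all genes 0 passed, against 3 with no filter on low counts and 0 to 2 when each library was left out (2 without library 7). An unadjusted p under 0.05 was reached by 259 of 6949 genes, 163 of 6949 with DESeq2, 1095 of 24024 with no filter, 425 of 9071 in the RNABC number 9 libraries, and 225 to 340 (of 6380 to 7827) when each library was left out. The count of members at that level was 1, and it was 0 with DESeq2, with no filter and without the 2 shallowest libraries (an alternative chosen after seeing the data), and 0 to 1 when each library was left out (0 without library 3, 4, 5, 7 or 10). The gene was Kdm6b in both RNABC alternatives and Kdm6a without library 8, in place of Tet2. Tet2 stayed above 0 throughout (0.23 to 0.38, unadjusted p 0.0204 to 0.195 in edgeR or DESeq2). Over the libraries left out, Dnmt1 ran from −0.23 (without 5) to −0.03 (without 7), Tet3 from −0.32 to −0.096 (without 3), Eed from −0.22 (without 5) to −0.054 (without 7), Kdm6a from 0.24 to 0.44 and Kdm6b from −0.27 to −0.14, with no change of sign. Dnmt1 was −0.032 and Tet3 −0.47 within RNABC number 9. Signs near 0 changed. Dnmt3a was 0.013 with the RNABC number as covariate and 0.031, 0.001 and 0.025 without library 2, 6 or 8 (−0.14 to 0.031 over the libraries left out). Ezh2 was −0.032, −0.0035, −0.05 and −0.09 without library 1, 6, 8 or 9 (up to 0.20). Suz12 was −0.058 within RNABC number 9 and −0.034 without library 4 (up to 0.20). Ezh1 was −0.14 in both RNABC alternatives, −0.10, −0.033 and −0.0046 without library 2, 3 or 9 (up to 0.18), and −0.13 without the 2 shallowest. The PRC1 median was −0.33 within RNABC number 9 and ran from −0.12 to 0.037 over the libraries left out, and the medians of the DNA methylation partners (−0.09 to 0.045) and Polycomb antagonists (−0.02 to 0.073) also changed sign there. The filter was applied anew in each of these fits, so the genes behind a median may differ. Members correlated with the cell cycle score at an adjusted permutation p under 0.05 numbered 0, and 0 to 2 when each library was left out: Dnmt1 at r = 0.74, 0.73 and 0.74 without library 3, 4 or 8, and Eed at 0.73 without library 4. Within RNABC number 9 r was 0.31 for Dnmt3a, 0.57 for Tet2, −0.024 for Suz12, 0.67 for Kdm6a and −0.37 for Kdm6b, each of the opposite sign, and without library 10 it was 0.12, 0.42, 0.27 and −0.37 for Dnmt3a, Tet2, Kdm6a and Kdm6b. The other ends of the left-out ranges were −0.72, −0.56, −0.44 and 0.19 for these genes. Kdm6b, at 0.0045 over all libraries, was −0.028 with the G2/M list alone and −0.0033, −0.02, −0.0008 and −0.049 without library 1, 3, 7 or 8. The cause of these changes was not tested. No paired analysis was possible because the groups share no replicate number. The ExT index was not fitted as a term, and 1 of the 8 indexes holds libraries of both groups.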
